A study of Rattus norvegicus with 8 samples.

Results

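The transcripts of 9 nuclear receptor cofactors were followed across 4 constructs: the coactivators Ppargc1a, Ppargc1b, Ncoa1, Ncoa2, Ncoa3, Med1 and Ep300 and the corepressors Ncor1 and Nrip1. They were chosen by name, as the features of the deposited count table that carry these symbols, and make up 9 of its 32258 features. The cells were H9C2, a rat cardiomyoblast line from embryonic heart, and 2 days of transduction with a pDC316 vector preceded the extraction of RNA. All 4 groups received YFP. In the control group (YFP) it was expressed alone, and in the others it was joined to the nuclear receptor PPARα as wild type (WT), with serine 280 replaced by alanine to resist phosphorylation (S280A), or with aspartate there to mimic it (S280D). Poly(A) RNA was sequenced from 2 libraries per group, so n = 2 for every mean ± SD. The labels do not state whether the libraries of a group were grown separately, so each p-value reflects the spread among these samples alone, and that spread may be technical. No source used here names the vector's promoter, and each construct acts in a single cell line that also holds its own Ppara gene.

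Nuclear receptors such as PPARα control transcription through cofactors that bind them rather than DNA. The p160 coactivators (Ncoa1, Ncoa2 and Ncoa3, also called SRC proteins) dock on the ligand-bound receptor and bring in the histone acetyltransferase p300, encoded by Ep300, while Med1 is the Mediator subunit that links receptors to RNA polymerase II. PGC-1α and PGC-1β, encoded by Ppargc1a and Ppargc1b, are coactivators known in heart and muscle for driving mitochondrial and fatty acid oxidation genes. Ncor1 is a scaffold that carries histone deacetylase 3 to receptors, chiefly without ligand, and Nrip1 encodes RIP140, which binds ligand-bound receptors and represses metabolic genes.

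The promoters of 6 of the 9 genes were found in the RefSeq promoter table of the GRCr8 assembly, and Ncoa2, Ncoa3 and Med1 had no entry. The 250 bases before the annotated start are shown for Ppargc1a, which gave almost no exon reads, and for Ncoa1, Ncor1 and Nrip1, which were well expressed and moved between constructs. Each is written 5′ to 3′ along the gene, and a match may lie on either strand. Capitals mark TGACGTCA, the cyclic AMP response element, in Ppargc1a, and GGGCGG, the GC box, or its reverse complement in the others. The windows lie at chr14:63634058-63634307, plus strand (Ppargc1a), chr6:33195925-33196174, minus strand (Ncoa1), chr10:47640351-47640600, minus strand (Ncor1) and chr11:28466413-28466662, minus strand (Nrip1).
Ppargc1a: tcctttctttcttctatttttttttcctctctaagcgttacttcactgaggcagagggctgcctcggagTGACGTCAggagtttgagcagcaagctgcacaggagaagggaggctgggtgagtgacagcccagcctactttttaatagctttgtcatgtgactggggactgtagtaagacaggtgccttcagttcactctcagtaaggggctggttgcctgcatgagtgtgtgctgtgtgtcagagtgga
Ncoa1: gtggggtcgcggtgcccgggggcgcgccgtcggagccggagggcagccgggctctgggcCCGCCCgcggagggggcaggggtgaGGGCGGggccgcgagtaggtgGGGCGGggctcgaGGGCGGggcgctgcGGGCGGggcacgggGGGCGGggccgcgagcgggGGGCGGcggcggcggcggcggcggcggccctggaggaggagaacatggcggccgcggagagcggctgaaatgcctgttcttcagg
Ncor1: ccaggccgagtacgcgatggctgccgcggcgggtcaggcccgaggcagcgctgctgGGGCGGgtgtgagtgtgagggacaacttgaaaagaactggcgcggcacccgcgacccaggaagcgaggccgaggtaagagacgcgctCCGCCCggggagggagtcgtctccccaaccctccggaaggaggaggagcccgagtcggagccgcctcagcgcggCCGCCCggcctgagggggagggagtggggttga
Nrip1: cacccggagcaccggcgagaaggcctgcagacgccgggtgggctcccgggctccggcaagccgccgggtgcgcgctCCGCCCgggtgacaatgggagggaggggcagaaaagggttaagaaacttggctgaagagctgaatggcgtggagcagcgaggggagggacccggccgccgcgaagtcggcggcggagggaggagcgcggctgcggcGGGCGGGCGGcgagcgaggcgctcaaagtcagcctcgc

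The Ppargc1a window held 1 match to TGACGTCA, which 1.59% of 33469 promoters of the same length hold, and 3 CpG dinucleotides, with fewer in 28.6% of promoters. The windows of the expressed genes were far richer in CpG, at 38 in Ncoa1, 28 in Ncor1, 32 in Nrip1 and 24 in Ep300, against a median of 5 over all promoters. The barely expressed Ppargc1b also had 31. GGGCGG matched 7 times in Ncoa1, 5 times in Ppargc1b and 3 times each in Ncor1 and Nrip1, where a pair of the matches overlap, and 30.5% of promoters hold at least 1. Neither AGGTCA, the nuclear receptor half-site (in 14.1% of promoters), nor the direct repeat of this half-site with 1 base between, to which PPAR and RXR bind (in 0.0508%), matched on either strand in any of the 6 windows. These matches describe the letters of the windows only, and TGACGTCA and GGGCGG were chosen after the sequences had been read.

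The libraries held 14018785 to 39526013 exon reads, with the most in S280D replicate 1. The check of the constructs, Ppara, stood at 59.5 and 74.4 CPM (exon reads per library size, scaled by TMM) in YFP and at 12382 to 24134 in the 6 receptor libraries, where reads of the construct and of the cell's own gene are not separated. Both ends of that range are WT, with 12382 in replicate 1 and 24134 in replicate 2. Of 16 muscle markers 5 reached a mean of 1 CPM, among them Tnnt2 at 129 to 265 CPM, while Nkx2-5 had 2 reads in all, Myh6 49 and Des 96. The muscle markers summed to 765 to 944 CPM in YFP and S280A and to 516 to 717 in WT and S280D. Endothelial markers summed to 1.05 to 2.09 CPM and immune ones to 0.0805 to 1.55, with Ptprc at 0 reads. Mesenchymal markers summed to 99718 to 114736 CPM in YFP and S280A and to 82015 to 89958 in WT and S280D. The muscle and mesenchymal sums separated the libraries as Ncoa1, Ncoa2, Med1, Ncor1 and Nrip1 did below, in the opposite direction. Not every marker went with its sum. Against YFP 6 of 8 tested mesenchymal markers had a negative log2 difference in WT and 5 in S280D, and of 9 tested muscle markers 6 and 5. In the edgeR test used below, 3 mesenchymal markers were called lower in WT and 2 in S280D, and 2 and 0 muscle markers. In each group 1 muscle marker was called higher and no mesenchymal one. Over all tested genes 7.45% were called lower in WT and 13.7% in S280D, and 12.2% and 17.1% higher. Fn1 averaged 31251 CPM in YFP, 36781 in WT and 31643 in S280D. Mef2c averaged 36.1, 54.1 and 62.9 CPM in these groups, and Tnnt2 219 in both YFP and S280D. The part of the markers in the cofactors' differences was not tested, and in bulk RNA fewer cells of a type and less RNA per cell cannot be told apart.

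The PGC-1 coactivators were close to undetected as spliced message. Ppargc1a (chr14:63095720-63187009, Rnor_6.0, 13 exons) had 4 exon reads over the 8 libraries, namely 1 in YFP replicate 2, 1 in S280A replicate 1, 2 in S280D replicate 1 and none elsewhere. In no group did the upper end of the 95% Poisson interval exceed 0.209 CPM, and in WT, with 0 reads, it was 0.100 CPM. It had more intron than exon reads, 46 in all. Ppargc1b (chr18:56626712-56728968, 14 exons) had 44 exon reads and 163 intron reads. Its exon reads summed to 0.136 CPM in YFP (5 reads, interval 0.0443 to 0.318), 0.326 in WT (12 reads, 0.169 to 0.570), 0.225 in S280A (6 reads, 0.0826 to 0.490) and 0.332 in S280D (21 reads, 0.205 to 0.507). The intervals overlap between all groups and cover counting error only, since PCR copies were not told apart by molecular identifiers. Neither gene passed the filter on low counts, and no fold change is given for their exon reads. At this depth differences in PGC-1 message between constructs were not detectable.

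The other 7 genes all passed the filter. Per kilobase of exon and averaged over the 8 libraries, Ep300 stood at 12.3 RPKM, Ncor1 at 10.7, Ncoa1 at 8.97, Med1 at 8.18, Nrip1 at 4.94, Ncoa3 at 3.77 and Ncoa2 at 2.90, against 0.0782 for Ppargc1b and 0.00775 for Ppargc1a. Over single libraries Ncor1 ranged from 5.69 to 15.1 RPKM, Ncoa1 from 6.07 to 11.7 and Med1 from 5.22 to 10.1, so these neighbours in the order overlap. The table's model of Ep300 has 2584 exon bases in 11 exons, short of the coding sequence of full-length p300, and the gene had 103 intron reads per 100 exon reads against 7.91 to 24.2 in the other 6. Its RPKM is therefore uncertain.

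Among the p160 coactivators Ncoa1 and Ncoa2 moved with the construct and no difference of Ncoa3 passed the test. Ncoa1 (chr6:28677540-28931843, 30 exons) read 42.9 and 59.4 CPM with YFP alone, 77.5 and 72.7 with WT, 51.5 and 44.1 with S280A, and 82.9 and 76.0 with S280D. Both WT and both S280D libraries lay above all 4 libraries of YFP and S280A. Over all tested genes both libraries lay above in 32.0% for WT against YFP, 33.9% for S280D against YFP and 36.6% for S280D against S280A, and below in 35.2% for S280A against WT. The share of genes that meet all of these together was not computed, so how common the joint order is remains unknown. Ncoa1 rose 1.47-fold in WT against YFP (log2 0.55 ± 0.16 SE, adjusted p = 0.0325) and 1.66-fold in S280D against S280A (log2 0.73 ± 0.16 SE, adjusted p = 0.00589), by edgeR's quasi-likelihood test with Benjamini-Hochberg adjustment over 12407 genes, which gives every adjusted p below unless another source is named.

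Ncoa2 (chr5:5616483-5694598, 21 exons), the least abundant of the 3, read 6.91 and 11.03 CPM with YFP alone, 15.2 and 17.9 with WT, 10.2 and 6.93 with S280A, and 18.6 and 15.4 with S280D. WT and S280D again stood above YFP and S280A in every library. The gene rose 1.83-fold in WT against YFP (adjusted p = 0.0320) and 1.99-fold in S280D against S280A (adjusted p = 0.0114). Ncoa3 (chr3:162692185-162787548, 23 exons) stayed between 15.9 and 19.1 CPM in all 8 libraries. Its log2 range over libraries was 0.26, against a median of 0.84 over all tested genes. The largest of its differences, S280D minus S280A, was 0.19 on the log2 scale with a 95% interval of -0.14 to 0.52. As a share of the p160 RPKM, Ncoa3 made up 31.8% and 25.8% with YFP alone, 20.3% and 21.6% with WT, 27.5% and 30.7% with S280A, and 19.9% and 22.5% with S280D, a description without a test.

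Med1, of Mediator, and Ep300, an acetyltransferase, followed different orders over the libraries. Med1 (chr10:86103600-86144880, 17 exons) read 36.7 and 43.8 CPM with YFP alone, 58.8 and 57.2 with WT, 40.9 and 30.4 with S280A, and 57.7 and 55.0 with S280D. WT and S280D lay above YFP and S280A without overlap. It fell by 0.70 on the log2 scale in S280A against WT (SE 0.16, adjusted p = 0.0124). Ep300 (chr7:122818975-122861296) read 24.1 and 25.8 CPM with YFP alone, 33.8 and 31.8 with WT, 33.0 and 28.4 with S280A, and 40.4 and 37.3 with S280D. All 6 receptor libraries, S280A included, lay above both YFP libraries, which for S280A was so in 17.9% of all genes, and WT and S280A overlapped. Only S280D against YFP passed the test for Ep300, at 1.56-fold (log2 0.64 ± 0.14 SE, adjusted p = 0.00677). Its WT value against YFP was 0.40 (adjusted p = 0.0646) and its S280A value 0.30 (adjusted p = 0.436).

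Both corepressors moved with the construct. Ncor1 (chr10:48629121-48772890, 45 exons) read 64.4 and 85.5 CPM with YFP alone, 109 and 111 with WT, 62.1 and 47.3 with S280A, and 126 and 109 with S280D. S280A lay below YFP in both libraries, and WT and S280D lay above. Ncor1 fell by 1.01 on the log2 scale in S280A against WT (SE 0.17, adjusted p = 0.00772) and rose 2.14-fold in S280D against S280A (log2 1.10 ± 0.17 SE, adjusted p = 0.00186). Nrip1 (chr11:14658225-14741563, 4 exons) read 20.2 and 31.4 CPM with YFP alone, 47.4 and 44.0 with WT, 29.6 and 23.7 with S280A, and 63.3 and 52.9 with S280D. Both S280D libraries were the highest of the 8, above WT. Nrip1 had the largest increase over YFP of the 7 tested genes, 2.25-fold in S280D (log2 1.17 ± 0.20 SE, adjusted p = 0.00249).

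**Figure D1:**
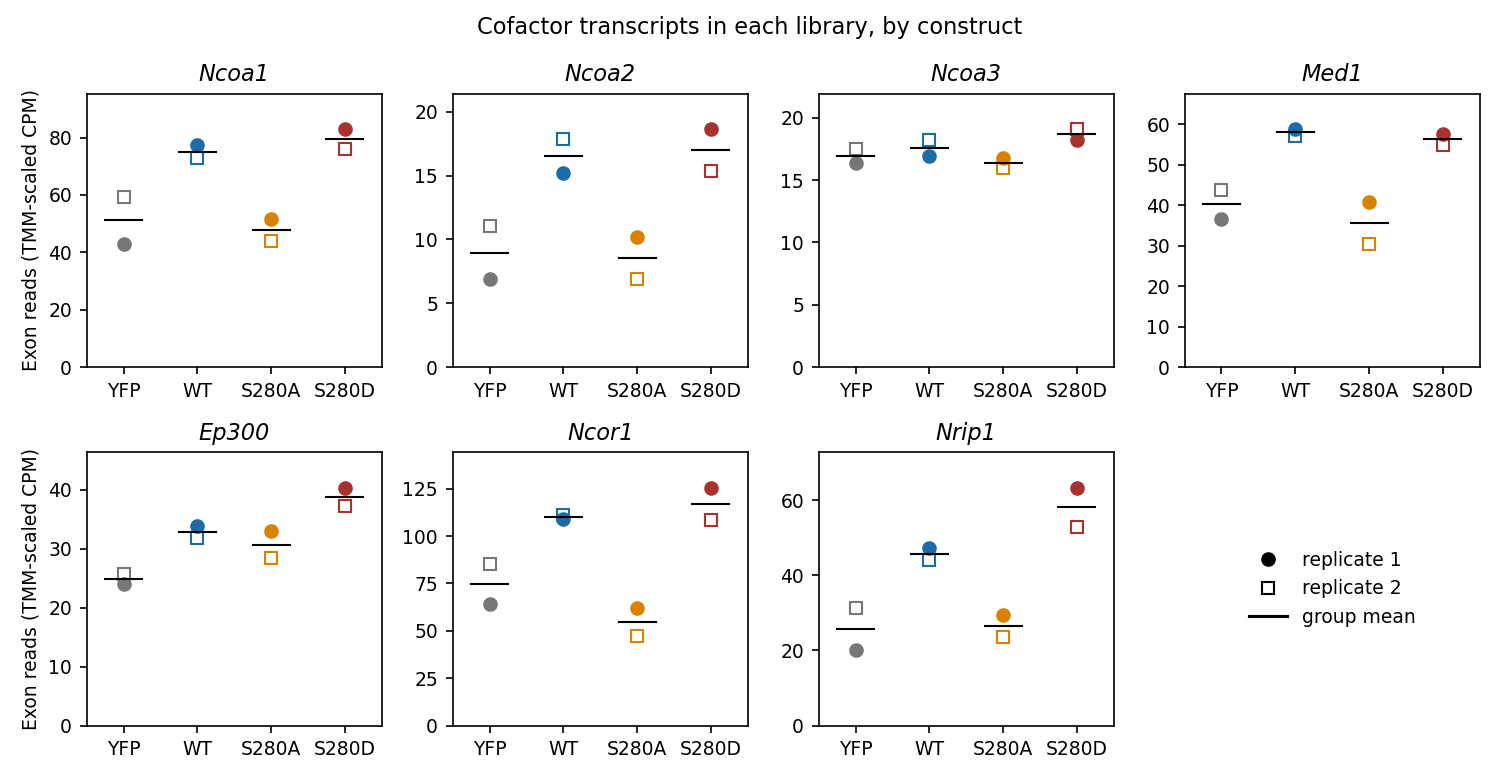
Exon reads of the 7 tested cofactors in CPM scaled by TMM (vertical axes, from 0), by construct, with replicate 1 as a filled circle, replicate 2 as an open square and the group mean as a line. WT and S280D libraries sit above YFP and S280A for Ncoa1, Ncoa2, Med1, Ncor1 and Nrip1, and Ncoa3 stays between 15.9 and 19.1 CPM.

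Set against each other per kilobase, Ncor1 and Nrip1 together came to 0.384 and 0.442 of the sum of the 5 expressed coactivators with YFP alone, 0.463 and 0.468 with WT, 0.339 and 0.316 with S280A, and 0.508 and 0.467 with S280D. S280A had the lowest values and overlapped no other group. The ratio of Ncor1 to Ncoa1 was 1.03 and 0.912 in S280A and 1.20 to 1.30 in the other 6 libraries. Both ratios are descriptions without a test, and the first includes the uncertain Ep300 level.

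Wild-type PPARα was compared with YFP alone. Of the 7 tested genes 5 rose (Ncoa1, Ncoa2, Med1, Ncor1 and Nrip1), none fell, and Ep300 and Ncoa3 did not pass. Over all tested genes 12.2% were called higher and 7.45% lower, and of the 3103 with the longest exons 19.5% were higher. Nrip1 had a log2 difference of 0.82 ± 0.20 SE (adjusted p = 0.0184), Ncor1 0.55 ± 0.16 (adjusted p = 0.0381) and Med1 0.53 ± 0.15 (adjusted p = 0.0356). The authors' deposited table called 4 of them, with Med1 at an adjusted p of 0.0541. The count was 0 when YFP replicate 1, WT replicate 1 or WT replicate 2 was left out, and 3 with the replicate number as a block. WT and YFP share no lane of those named in the column headers, and with lane as a covariate no cofactor and 9 genes in all were called.

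The phosphorylation-mimicking receptor was compared with YFP in the same way. Of the 7, 6 rose in S280D and none fell, where 17.1% of all tested genes were called higher and 13.7% lower, and of the 3103 with the longest exons 28.4% were higher. Ncoa1 rose by 0.63 ± 0.16 SE on the log2 scale (adjusted p = 0.0128), Ncoa2 by 0.92 ± 0.24 (adjusted p = 0.0175), Ncor1 by 0.64 ± 0.16 (adjusted p = 0.0145) and Med1 by 0.48 ± 0.15 (adjusted p = 0.0341). Within lane 1, where S280D had 1 library and YFP 2, the log2 differences were 1.33 for Nrip1, 1.09 for Ncoa2, 0.76 for Ncor1, 0.71 for Ncoa1, 0.69 for Ep300 and 0.52 for Med1. The count was 2 without YFP replicate 1, 1 (Nrip1) without S280D replicate 1, and 2 (Nrip1 and Ep300) with lane as a covariate. Nrip1 stayed past the threshold in all 17 alternative fits, with adjusted p of 2.59e-11 to 0.0198.

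The phosphorylation-resistant receptor gave no called cofactor against YFP. In S280A 0 of the 7 were called by edgeR and 0 by DESeq2, against 0.0403% of all genes called higher and 0.00% lower, and 1 (Ncor1) had an unadjusted p under 0.05. Ncor1 was at -0.45 ± 0.17 SE on the log2 scale (adjusted p = 0.383), with both S280A libraries below both YFP libraries as in 19.9% of all genes. For Nrip1 the 95% interval ran from -0.40 to 0.49 and for Ncoa1 from -0.45 to 0.25, so changes within these bounds were not excluded. The 3 comparisons with YFP share the same 2 YFP libraries, and whether the responses to the constructs differed is answered by the direct comparisons that follow.

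S280A, the receptor made to resist phosphorylation, was compared directly with WT. Whether either receptor was phosphorylated in these cells was not tested. Of the 7 genes 5 fell (Ncoa1, Ncoa2, Med1, Ncor1 and Nrip1) and none rose, where 15.9% of all tested genes were called lower and 10.1% higher, and of the 3103 with the longest exons 27.5% were lower. Nrip1 fell by 0.78 on the log2 scale (SE 0.20, adjusted p = 0.0194), Ncoa1 by 0.65 (SE 0.16, adjusted p = 0.0164) and Ncoa2 by 0.94 (SE 0.25, adjusted p = 0.0229). Ep300 was at -0.09 (95% interval -0.40 to 0.21). Within lane 2, with 1 S280A and 2 WT libraries, Ncor1 was at -0.82, Ncoa2 at -0.69, Nrip1 at -0.63, Ncoa1 at -0.54 and Med1 at -0.50. The count was 0 without WT replicate 1 or S280A replicate 2, 1 without WT replicate 2, and 1 (Ncor1) with lane as a covariate.

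S280D was set against S280A to compare the receptors that mimic and resist phosphorylation. Of the 7 genes 5 were higher in S280D and none lower, where 21.3% of all tested genes were called higher and 18.0% lower, and of the 3103 with the longest exons 35.4% were higher. Nrip1 rose 2.18-fold (log2 1.13 ± 0.20 SE, adjusted p = 0.00277) and Med1 1.58-fold (log2 0.66 ± 0.16 SE, adjusted p = 0.00840). Ep300 was at 0.34 (adjusted p = 0.0688). These groups have 1 library in each lane: the differences in lanes 1 and 2 were 1.42 and 0.84 for Nrip1, 1.41 and 0.81 for Ncor1, 1.42 and 0.59 for Ncoa2, 0.91 and 0.56 for Ncoa1, and 0.92 and 0.43 for Med1. Lane 1 gave the larger value for all 5. The count was 2 without S280A replicate 2 (Ncor1 and Nrip1) and 3 without S280D replicate 1, and Ncor1 and Nrip1 stayed past the threshold in all 17 alternative fits.

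S280D did not differ detectably from WT. Of the 7 genes 0 were called by edgeR and 0 by DESeq2, against 0.00% of all genes called higher and 0.0403% lower, and none had an unadjusted p under 0.05. Nrip1 was at 0.35 (95% interval -0.08 to 0.77) and Ep300 at 0.24 (-0.05 to 0.54), and both S280D libraries lay above both WT libraries in each, as in 19.4% of all genes. For Ncor1 the interval was -0.26 to 0.45 and for Med1 -0.37 to 0.29.

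**Figure D2:**
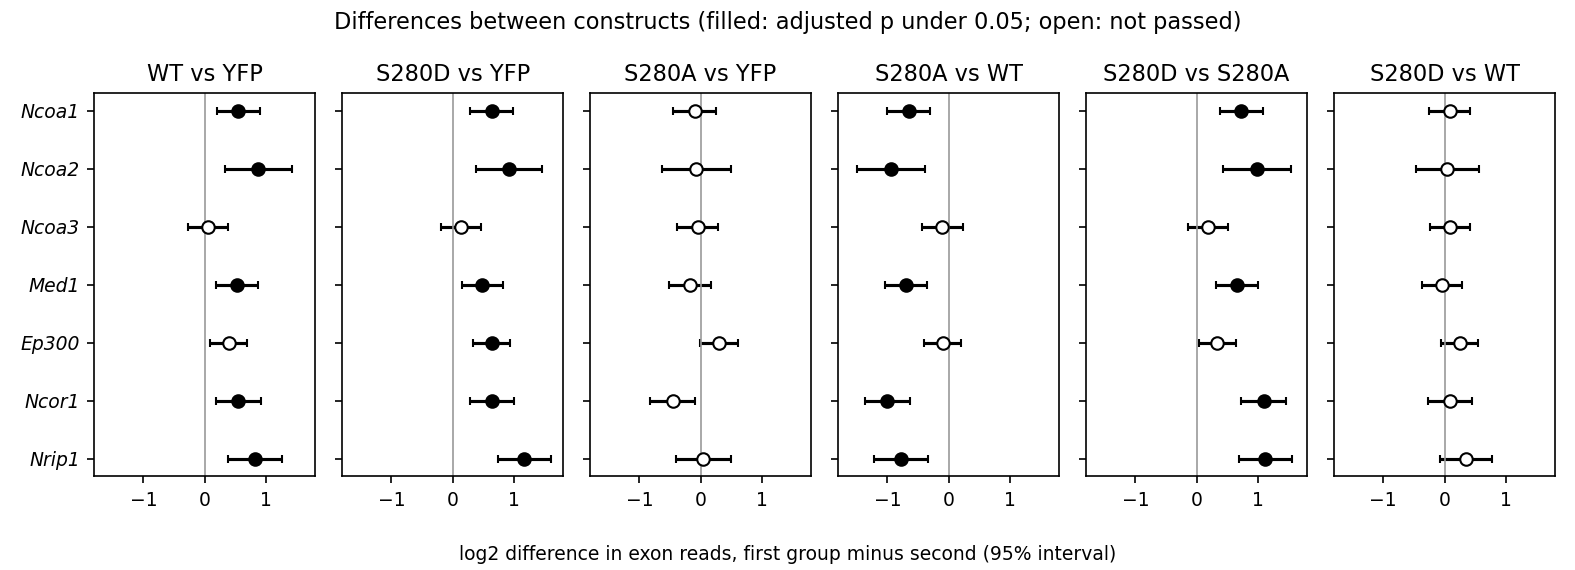
Log2 differences in exon reads (horizontal axes, first group minus second) with 95% intervals for the 7 tested cofactors in the 6 comparisons, filled where the adjusted p was under 0.05. Filled points lie to the right for WT and S280D against YFP and for S280D against S280A, to the left for S280A against WT, and are missing in S280A against YFP and S280D against WT.

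The libraries also differed across the whole transcriptome and with the length of the gene. The first principal component of log2 CPM held 56.4% of the variance, with scores of -19.9 and -51.0 in S280A, -40.4 and -16.4 in YFP, 31.6 and 20.7 in WT, and 47.6 and 27.9 in S280D. YFP replicate 1 or S280A replicate 2, its lowest libraries, gave the lowest value of all 7 cofactors, and S280D replicate 1, its highest, gave the highest value of 5. Of the 7 genes 6 were among the 3103 tested genes with the longest exons (3585 bases or more), with Ep300 the exception. The model of Ep300, at 2584 bases, is short of its coding sequence, so its place by length is uncertain. Across tested genes, which are not independent replicates, Spearman's rho between exon length and the log2 difference was 0.19 in WT against YFP, 0.24 in S280D against YFP, -0.21 in S280A against WT and 0.24 in S280D against S280A. It was 0.18 in S280D against WT, where no cofactor was called, and -0.05 in S280A against YFP.

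When each library was adjusted for exon length by a loess curve, the called cofactors numbered 2 (Ncoa2 and Nrip1) in WT against YFP, 3 (Ncoa2, Nrip1 and Ep300) in S280D against YFP, 3 (Ncoa2, Ncor1 and Med1) in S280A against WT and 3 (Ncoa2, Ncor1 and Nrip1) in S280D against S280A. The adjusted log2 difference between S280D and S280A was 0.64 for Nrip1, 0.60 for Ncor1, 0.70 for Ncoa2, 0.28 for Ncoa1 and 0.28 for Med1, and the sign of Ncoa3 turned, to -0.12. This adjustment moved the median of all genes to -0.13 and the split of calls from 2641 higher and 2232 lower to 2169 higher and 3162 lower. Ep300 entered the adjustment at the length of its short model, so its adjusted values are uncertain. The part of exon length in the cofactors' differences was not tested further.

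**Figure D3:**
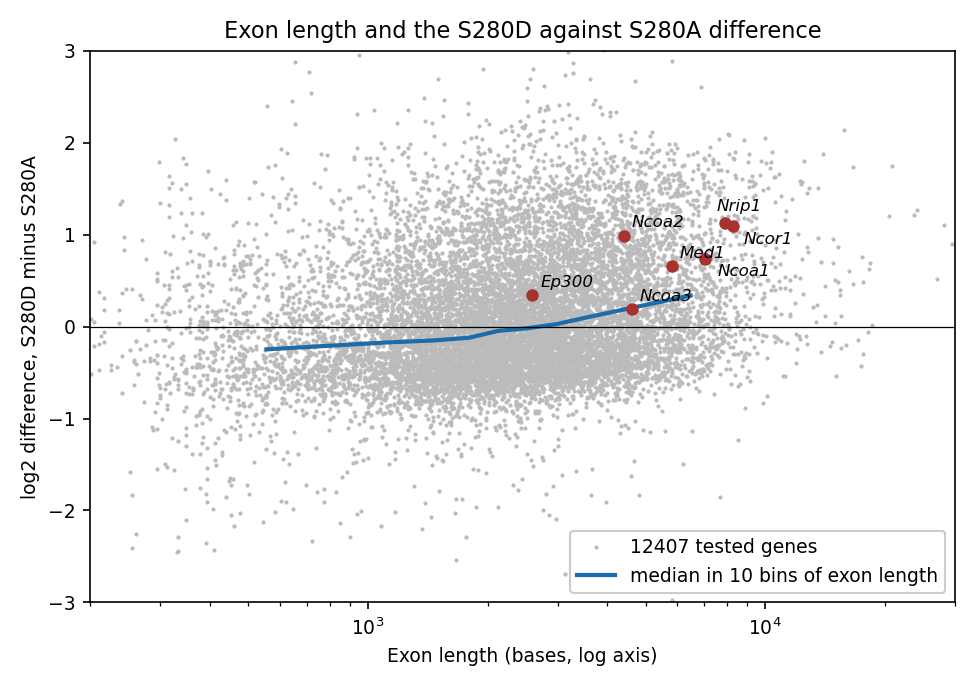
Log2 difference between S280D and S280A (vertical axis) against exon length in bases (horizontal log axis) for 12407 tested genes in grey, with the 7 cofactors in red and the median of each of 10 bins of exon length as a line. The line climbs from -0.25 to 0.34, Ncoa3 lies on it and the other 6 cofactors above it, and 51 genes are outside the axes. Ep300 is placed at the length of its short model.

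Intron reads, which come largely from unspliced RNA, gave a second readout of the same genes. For Ep300, with 103 of them per 100 exon reads, they may include reads of exons that its short model lacks. This was not tested. Of the 8 cofactors tested on intron reads, Ppargc1b included, 0 were called in any of the 6 comparisons by edgeR and 0 by DESeq2, where the share of all 12988 genes called was 2.02% in WT against YFP, 5.35% in S280D against YFP, 4.54% in S280D against S280A, 0.00770% in S280A against WT, 0.0154% in S280A against YFP and 0.00% in S280D against WT. At an unadjusted p under 0.05 there were 2, 3 and 2 cofactors in the first 3 of these, 1 in S280A against WT and 0 in the others. In S280D against S280A 1 of the 2 was Ncoa3. Its intron reads were lower in S280D (log2 -0.57 ± 0.24 SE), while its exon difference was 0.19. Ncoa2 came nearest to a call. Its intron reads stood at 3.34 and 8.43 CPM of all intron reads with YFP alone, 14.9 and 10.2 with WT, 5.86 and 5.87 with S280A, and 17.8 and 15.5 with S280D. They followed the order of its exon reads, with a log2 difference of 1.44 ± 0.40 SE in S280D against YFP (adjusted p = 0.0508) and 1.51 ± 0.42 in S280D against S280A (adjusted p = 0.0558).

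For Nrip1 no difference in intron reads passed the test. They were 12.9 and 22.9 CPM with YFP alone, 20.2 and 16.8 with WT, 20.7 and 18.2 with S280A, and 23.4 and 21.3 with S280D. The intron log2 difference between S280D and S280A was 0.20 ± 0.30 SE, against 1.13 ± 0.20 for exon reads. A fit of both kinds of read, chosen after these values had been seen, put the exon change above the intron change by 0.98 ± 0.29 SE (adjusted p = 0.0497), where 5.04% of 9892 genes were called in that direction. That call sat at the threshold: the adjusted p was 0.0751 with RLE scaling, 0.279 without S280A replicate 2 and 0.450 without S280D replicate 1, and leaving out WT replicate 1, WT replicate 2, S280A replicate 1 or S280D replicate 2 also took it past 0.05. In S280D against S280A Med1 (0.94, adjusted p = 0.0617), Ncor1 (0.74, adjusted p = 0.0775) and Ncoa3 (0.81, adjusted p = 0.119) had differences of the same sign that did not pass. Ep300 was at 0.52 (adjusted p = 0.175), Ncoa1 at 0.37 (adjusted p = 0.395) and Ncoa2, of opposite sign, at -0.48 (adjusted p = 0.578). The value of Ep300 is uncertain, as its exon model is short. The share of intron reads was 11% and 11.9% with YFP alone and 14.2% to 15.8% in the receptor libraries, and their part in these differences was not tested.

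**Figure D4:**
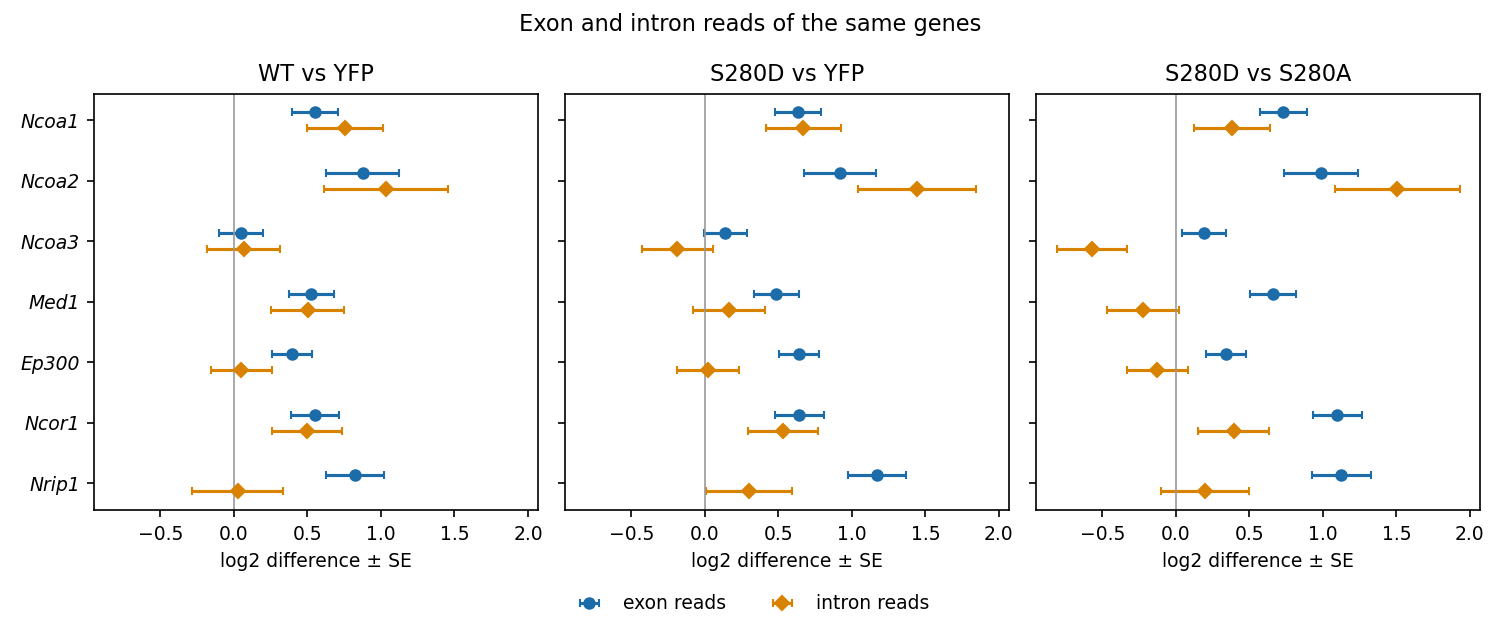
Log2 differences ± SE (horizontal axes) in exon reads (blue circles) and intron reads (orange diamonds) of the 7 cofactors in 3 comparisons. The intron reads of Ep300 may include exons that its short model lacks. For Ncoa1, Ncoa2, Ncor1 and Nrip1 both kinds of point lie to the right of 0. The intron points of Nrip1 lie at 0.02 to 0.30 and its exon points reach 1.17.

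Other genes of cofactor complexes moved in both directions. In S280D against S280A, 21.3% of genes were called higher and 18.0% lower. Of 14 tested acetyltransferases and other coactivators 5 rose and 6 fell. The acetyltransferase Kat2b (log2 2.17, adjusted p = 0.00188) and the coactivator Ncoa7 (1.27, adjusted p = 0.00298) led those that rose. Among those that fell Ncoa5, named after its value was seen, had the smallest adjusted p (log2 -0.48, adjusted p = 0.0153). Of 30 tested Mediator subunits 5 rose and 4 fell. Med13 (1.54, adjusted p = 0.00166) and cyclin C, encoded by Ccnc (1.58, adjusted p = 0.00186), both parts of the kinase module, rose, and Med25 fell by 0.65 (adjusted p = 0.00744). Of 16 tested partners of corepressor complexes 7 rose and 3 fell. Tbl1xr1, a subunit of the NCoR complex, rose by 1.70 (adjusted p = 0.00268), and Sin3b, a scaffold of another deacetylase complex, fell by 0.75 (adjusted p = 0.00387). Of 13 SWI/SNF chromatin remodelling subunits 2 rose and 4 fell, with Pbrm1 at 1.56 and Smarcb1 at -0.73. The median log2 difference of each of these 4 lists lay between -0.09 and 0.10, against -0.01 over all tested genes and 0.73 over the 7 cofactors.

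The receptors and DNA-binding factors that the cofactors serve also split, with 3 of 13 tested higher in S280D and 4 lower. Mef2c (1.33, adjusted p = 0.00174), Mef2a (1.16, adjusted p = 0.00232) and Gabpa (1.502, adjusted p = 0.00241), factors that PGC-1 proteins coactivate, rose, and Mef2c is also among the muscle markers. The 4 lower genes, named after their values were seen, are all nuclear receptors: Rxra fell by 0.73 (adjusted p = 0.00333), Esrra by 0.49 (adjusted p = 0.0133), Thra by 0.41 (adjusted p = 0.0311) and Rxrb by 0.52 (adjusted p = 0.0464). Esrra, which encodes ERRα, is a partner of PGC-1 proteins as well. Of 13 tested PGC-1 target genes 3 rose and 3 fell. Tfb2m, a mitochondrial transcription factor, rose by 1.02 (adjusted p = 0.00191), while Atp5b, of ATP synthase, and Cox5b, of the respiratory chain, fell by 0.69 (adjusted p = 0.00355) and 0.54 (adjusted p = 0.00771). Of 13 tested regulators of PGC-1α, 8 rose and none fell in S280D against S280A, with a median of 0.79. The kinase subunits Prkaa1 (1.06, adjusted p = 0.00186) and Prkaa2 (1.74, adjusted p = 0.00186) of AMPK and the calcineurin subunit Ppp3ca (1.21, adjusted p = 0.00186) led them. Ppargc1a itself had 1 exon read in S280A (0.0375 CPM) and 2 in the more deeply sequenced S280D (0.0316 CPM). The count of this list was also 8 after the exon length adjustment, and 4 without S280A replicate 2 or without S280D replicate 1. Against YFP 6 of its 13 genes were higher in WT, where 12.2% of all tested genes were. That count was 0 with lane as a covariate, 2 without YFP replicate 1, 1 without WT replicate 1 and 3 without WT replicate 2. In S280D 6 were higher than in YFP, against 17.1% of all genes, and 5 to 7 in the alternative fits. In S280A 6 were lower than in WT, against 15.9% of all genes, but 0 without WT replicate 1 or without S280A replicate 2, and 3 with lane as a covariate. None was called in S280A against YFP or S280D against WT.

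**Figure D5:**
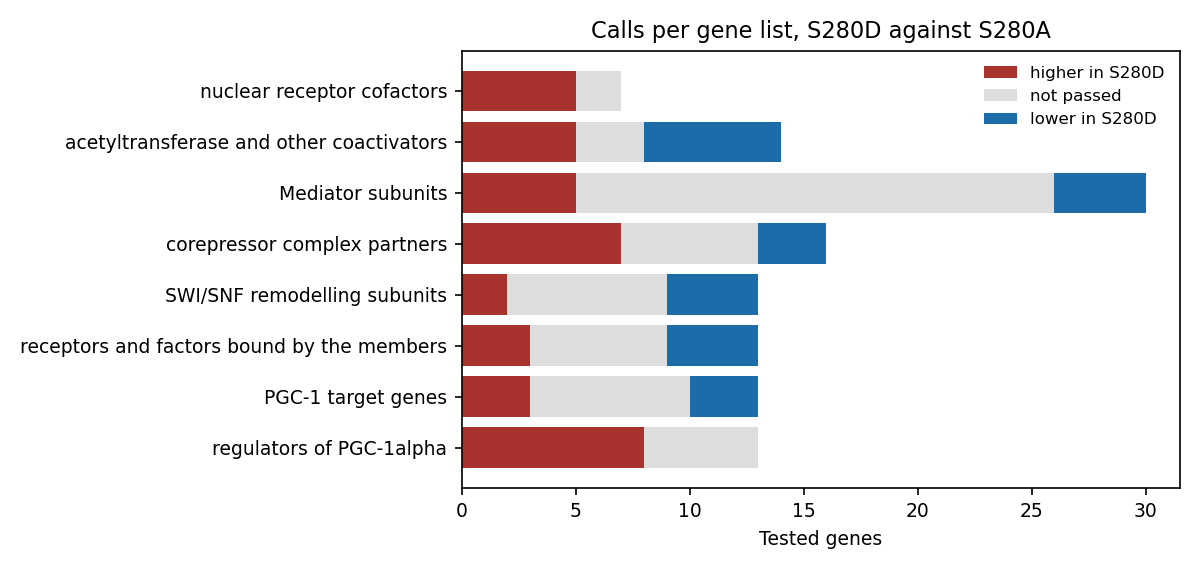
Number of tested genes (horizontal axis) called higher in S280D (red), called lower (blue) or not passing (grey) against S280A, for the cofactors and 7 lists of related genes. The cofactors (5 of 7) and the regulators of PGC-1α (8 of 13) have red but no blue, and the other lists have both.

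The genes whose profile over the 8 libraries was most like that of Nrip1 were Xpo4, Zmym1 and Tbc1d23, at a root mean square difference in centred log2 CPM of 0.04, 0.07 and 0.07 among 10696 genes compared. For Ncor1 they were Msrb3, Ints2 and Coa5, each at 0.05. Ppargc1a had too few reads for such a comparison. Among the cofactors themselves Ncoa1 and Med1 were closest, at 0.10, and Ncoa3 and Nrip1 farthest apart, at 0.48.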

How the data were processed

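The authors deposited raw counts of total exon, unique exon and intron reads per feature and library, from trimmed reads of lanes 1 and 2, per the file headers. The Rnor_6.0 build comes from the submitters' processing notes. No source used here gives the aligner, the gene annotation or how strand was set in counting, although the libraries were strand-specific per the labels' protocols. The authors' deposited FDR-adjusted p-values and the authors' deposited signed fold changes were used only where the text names them. Exon-exon reads were not used here.

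Groups came from the labels. The second WT library, titled 2 and numbered 3 in its description, is replicate 2. Exon reads of 12407 genes (filterByExpr, TMM scaling) were fitted with edgeR 4.0.16 in R 4.3.3, with 1 coefficient per group, 4 residual degrees of freedom and a common dispersion of 0.0176, and tested two-sided at an adjusted p of 0.05. Intron reads were fitted likewise. DESeq2 1.42.0 was an alternative, with RLE factors, other filters (none, or 1 CPM in 2 libraries), an added 1.5-fold threshold, only the 4 libraries compared, unique reads, a replicate block, lane, exon length, and each library left out. CPM are TMM-scaled, and RPKM divide them by the table's exon length. Log2 CPM used a prior count of 2. The scripts were tested on simulated data. Within each group neither library was a duplicate of the other.

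The members and lists were chosen with earlier results of these data known. The text names the 9 members, Ppara, up to 3 genes per list and comparison that passed with the smallest adjusted p, and the 3 genes most like Nrip1 and Ncor1 among those with a mean of at least 1 CPM. Protein motifs were not analysed here. Starts in the table count from 0 and are given from 1.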

Additional observations from a re-analysis of the deposited data

How the results depend on the processing

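The direction of every called cofactor difference was kept in all 17 alternative fits, and RLE scaling, both other filters, DESeq2, unique reads and the fit of only the 4 libraries compared changed no call. Other settings moved counts of called cofactors. In WT against YFP (5 called) there were 2 past an added 1.5-fold threshold, 2 with the exon length offset, 0 with lane as a covariate and 0 to 5 when a library was left out. In S280D against YFP (6 called) there were 3 with the offset, 2 with lane and 1 to 6 without a library. In S280A against WT (5 called) there were 3 with the offset, 1 with lane and 0 to 5 without a library. In S280D against S280A (5 called) there were 3 with the offset and 2 to 6 without a library. With the replicate number as a block 3 cofactors were called in WT against YFP, and the block changed no other count of called cofactors. The labels do not say that the numbers pair cultures, and correlations of same-numbered deviations were -0.17 to -0.09 in the 3 pairs of groups with YFP and 0.12 to 0.21 in the 3 among the receptor groups. As not every pair was positive, the numbers were not taken to pair the samples. For intron reads (0 called; alternatives chosen after seeing the data) 1 was called in S280D against YFP with RLE scaling, with no filter and with the 1 CPM filter, and 1 in S280D against S280A with either filter, and 0 to 1 without a library in both. A group that lost a library kept 1 sample, taken to have the same spread as the rest.

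Signs turned only for differences that had not passed. The offset gave Ncoa3 -0.15 in WT against YFP, -0.13 in S280D against YFP, 0.14 in S280A against WT and -0.12 in S280D against S280A, Ep300 0.0140 in S280A against WT, and in S280D against WT Ncoa1 -0.0238, Ncoa2 -0.0255 and Ncor1 -0.0288. Lane gave Ncoa3 -0.0171 in WT against YFP and Med1 0.0489 in S280D against WT. Without 1 library the ranges were, in S280A against YFP, -0.32 to 0.15 for Ncoa1, -0.38 to 0.31 for Ncoa2, -0.10 to 0.00562 for Ncoa3, -0.41 to 0.0424 for Med1 and -0.24 to 0.40 for Nrip1, in S280D against WT -0.10 to 0.18 for Ncoa2 and -0.0175 to 0.19 for Ncor1, in S280A against WT -0.21 to 0.0380 for Ep300, and in WT against YFP -0.0047 to 0.10 for Ncoa3. The cause was not tested. The exon length offset also moved the split of all calls to 1401 higher and 1598 lower from 1513 and 924 in WT against YFP, to 1784 and 2579 from 2116 and 1699 in S280D against YFP, and to 2049 and 1659 from 1250 and 1976 in S280A against WT. Depth limited Ppargc1a and Ppargc1b most.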
